A study of Mus musculus with 63 samples.

Results

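The immediate early and AP-1 genes are 10 genes taken by symbol from the 54752 in each of the 4 tables of counts, namely Egr1, Egr2, Fos, Fosb, Fosl1, Jun, Junb, Ier2, Ier3 and Atf3. They were followed in RNA-Seq of 57 libraries in 19 groups of 3, from mouse small intestinal organoids and intestinal epithelial cells (IECs) with or without the kinases CDK8 and CDK19. All strains were labelled C57BL/6. In a time course, organoids of the genotype VillinCreERT2/Cdk8 fl/fl/Cdk19-/- received 4-hydroxytamoxifen (4-OHT, 100 nM) or ethanol (EtOH, 0.001%) for 24 hours and were collected on days 3, 5, 7 and 10. Both arms lack Cdk19, so 4-OHT against EtOH asks about deletion of Cdk8 in cells without CDK19. The arms also differ in 4-OHT and in Cre activity, and no line with Cre and intact Cdk8 had both treatments, so these cannot be told apart from the deletion here or in the lines with both treatments below. The same genotype was grown in Wnt3-conditioned medium (Wnt3-CM) to day 10 with EtOH or 4-OHT. A kinase-dead line, VillinCreERT2/Cdk8 fl/fl/Cdk19 D173A/-, received EtOH or 4-OHT and was collected on day 7. Further organoids, all collected 7 days after 4-OHT, came from VillinCreERT2, C57BL/6, VillinCreERT2/Cdk8 fl/fl (CDK8iIEC-KO), Cdk8 fl/fl/Cdk19-/- without Cre, and VillinCreERT2/Cdk8 fl/fl/Cdk19-/- (CDK8iIEC-KO/Cdk19-/-). IECs came from VillinCreERT2 and CDK8iIEC-KO/Cdk19-/- mice 14 days after the last of 5 daily injections of tamoxifen (80 mg/kg).

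Several features of the samples limit what a comparison shows. The villin promoter drives Cre in epithelium, so Cdk8 was deleted there and Cdk19 in the whole animal. Among the organoids compared by genotype on day 7, column names give 1 line number to each of the 5 genotypes, so genotype and line cannot be told apart. The CDK8iIEC-KO/Cdk19-/- organoids of that comparison carry another line number than the time course and Wnt3-CM organoids of the same genotype. No label names the columns of the kinase-dead organoids, which were taken as the last EtOH and 4-OHT columns left, while the Wnt3-CM columns were taken from a W in their names beside the line, day and treatment. Nothing states that organoid replicates came from separate cultures, so their p-values measure the spread between these libraries, while each IEC column has a number of its own. The counts cover whole genes and do not check the deletions, with Cdk8 between 34.2 and 83.1 CPM (counts scaled by library size) over all libraries. Cdk19 was between 15.1 and 60.0 CPM, in the Cdk19-/- time course no lower than in VillinCreERT2 organoids, where it held 28.1 ± 0.946 CPM. VillinCreERT2, C57BL/6 and kinase-dead organoids expressed Xist and the other organoids the Y-linked Ddx3y, so sex chromosomes also differ between some lines compared. VillinCreERT2 IECs expressed Xist without Ddx3y, and CDK8iIEC-KO/Cdk19-/- IECs were mixed in this respect. Libraries held 15485959 to 32909565 counts. Summed markers of epithelium were at 6215 to 12591 CPM in organoids, and 10 immune markers summed to 1.09 to 7.26 CPM there against 77.6 to 972 CPM in IECs. Sums of 6 mesenchyme markers ran from 0.0321 to 32.5 CPM in organoids and from 6.04 to 815 CPM in IECs. The organoid maximum was in day 7 EtOH replicate 2 of the time course, and kinase-dead 4-OHT replicate 3 held 5.43 CPM.

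Immediate early genes are transcribed within minutes of a growth factor or stress signal, without new protein synthesis. Signals through ERK reach SRF, which binds CArG boxes at Egr and Fos genes together with TCF proteins, and signals through cyclic AMP reach CREB, which binds the CRE. FOS and JUN proteins pair into the factor AP-1, and the Mediator kinase module, of which CDK8 and CDK19 are the kinases, takes part in the transcription of serum response genes. In the intestine, EGF and Wnt from neighbouring cells keep crypt cells dividing, and the organoid medium contained EGF throughout.

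Promoter windows of RefSeq (GRCm38.p6), each from 250 bases before to 50 bases after a start, were at hand for 7 members. They were searched on both strands for the CRE (TGACGTCA), its half-site (TGACG, which the CRE also holds), an AP-1 site (TGANTCA) and the CArG box. The half-site was in windows of Fos, Fosb, Junb, Atf3 and Egr2 and in none of Jun or Ier3, where 20.8% of all 32851 windows hold it. Egr2 has 5 windows, of which 4 hold a CArG box (1.63% of all windows) and 3 also hold half-sites. These 3 windows overlap and hold the same CArG box and the same half-sites, so they are not separate sites. None of the 11 windows holds a full CRE (1.79% of all) or an AP-1 site (7.81% of all). A match describes letters and is not a site of binding. Variants of these letters and sites outside the windows were not searched, so a window without a match can still hold such a variant. The windows of Fos (chr12:85473640-85473939, plus strand), Junb (chr8:84978699-84978998, minus strand), Atf3 (chr1:191183284-191183583, minus strand, inside the gene as annotated in vM21) and Egr2 (chr10:67537680-67537979, plus strand) are shown because all 4 genes were higher in Wnt3-CM and lower there after 4-OHT. That of Ier3 (chr17:35821463-35821762, plus strand) is shown because Ier3 did the same and its window holds no match. That of Jun (chr4:95052173-95052472, minus strand), also without a match, is shown because Jun was lower after 4-OHT in both media. Capitals mark the half-site in either orientation and, in Egr2, also the CArG box.
Fos: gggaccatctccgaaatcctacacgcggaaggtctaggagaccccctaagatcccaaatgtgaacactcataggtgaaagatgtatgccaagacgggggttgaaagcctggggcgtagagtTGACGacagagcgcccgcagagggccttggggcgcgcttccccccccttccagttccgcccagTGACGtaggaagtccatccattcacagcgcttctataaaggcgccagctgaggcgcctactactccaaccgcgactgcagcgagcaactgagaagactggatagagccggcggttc
Junb: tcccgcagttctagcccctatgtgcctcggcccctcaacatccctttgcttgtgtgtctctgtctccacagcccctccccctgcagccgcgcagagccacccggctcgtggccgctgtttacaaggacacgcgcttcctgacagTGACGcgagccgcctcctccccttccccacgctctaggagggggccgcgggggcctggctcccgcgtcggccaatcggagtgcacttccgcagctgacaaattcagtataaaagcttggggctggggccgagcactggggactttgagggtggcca
Atf3: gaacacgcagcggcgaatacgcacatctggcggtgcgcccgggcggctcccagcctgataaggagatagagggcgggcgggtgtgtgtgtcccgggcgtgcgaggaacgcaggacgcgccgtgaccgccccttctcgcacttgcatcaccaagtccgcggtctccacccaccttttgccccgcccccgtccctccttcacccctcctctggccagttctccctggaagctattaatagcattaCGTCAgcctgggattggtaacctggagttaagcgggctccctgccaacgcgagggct
Egr2: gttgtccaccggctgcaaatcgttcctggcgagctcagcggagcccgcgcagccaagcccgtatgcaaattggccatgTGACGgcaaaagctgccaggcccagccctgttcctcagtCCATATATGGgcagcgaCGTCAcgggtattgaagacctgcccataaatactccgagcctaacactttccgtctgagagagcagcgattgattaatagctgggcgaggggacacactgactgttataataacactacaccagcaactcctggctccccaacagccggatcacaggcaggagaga
Jun: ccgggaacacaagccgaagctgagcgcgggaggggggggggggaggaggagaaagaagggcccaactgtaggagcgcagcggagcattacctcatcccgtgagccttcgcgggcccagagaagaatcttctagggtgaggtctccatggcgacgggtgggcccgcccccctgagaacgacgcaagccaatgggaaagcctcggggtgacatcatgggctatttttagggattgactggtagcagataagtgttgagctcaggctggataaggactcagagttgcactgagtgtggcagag
Ier3: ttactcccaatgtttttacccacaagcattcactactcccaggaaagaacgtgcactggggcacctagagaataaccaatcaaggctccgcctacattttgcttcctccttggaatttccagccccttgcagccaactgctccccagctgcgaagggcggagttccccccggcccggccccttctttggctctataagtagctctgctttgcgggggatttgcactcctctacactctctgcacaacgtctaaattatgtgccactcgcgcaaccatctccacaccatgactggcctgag

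Genes are located on GRCm38 in GENCODE vM21, and all 10 are protein coding. Egr1 lies on chromosome 18 from 34859823 to 34864984 and Egr2 on chromosome 10 from 67535475 to 67542188. Fos lies on chromosome 12 from 85473890 to 85477273, Fosb on chromosome 7 from 19302696 to 19310051 and Fosl1 on chromosome 19 from 5447547 to 5455946. Jun lies on chromosome 4 from 95049034 to 95052222 and Junb on chromosome 8 from 84974484 to 84978718. Ier2 lies on chromosome 8 from 84661331 to 84662852, Ier3 on chromosome 17 from 35821684 to 35822923, and Atf3 on chromosome 1 from 191170296 to 191218039. Exons of Jun overlap the antisense gene Junos, those of Junb overlap Prdx2 and those of Fosl1 overlap Ccdc85b, each on the other strand. Whether reads were counted by strand is not stated, so reads of these pairs cannot be told apart and values of Jun, Junb and Fosl1 are uncertain to that extent.

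The members covered a wide range of expression. Per kilobase of exon, EtOH organoids on day 7 held Junb at 71.1 ± 4.13 CPM (SD, n = 3) and Ier2 at 70.3 ± 5.92 CPM, which did not differ beyond their spread. Next came Jun at 19.9 ± 1.89 CPM per kilobase, above Egr1 at 14.5 ± 1.6 and Ier3 at 14.1 ± 0.540, which again lay within their spread. Fos followed at 8.29 ± 0.771, Atf3 at 6.50 ± 0.633 and Fosl1 at 1.92 ± 0.341 CPM per kilobase. Fosb and Egr2 were lowest, at 0.174 ± 0.0646 and 0.124 ± 0.0612 CPM per kilobase. Raw counts of Egr2 ran from 1 to 28 and those of Fosb from 5 to 79 over all organoid libraries, so both were measured with little depth. In VillinCreERT2 IECs Fos, at 78.9 ± 11.5 CPM per kilobase, and Junb, at 68.3 ± 2.14, stood highest and lay within their spread. Egr1 was at 1.98 ± 0.463 there. All later values are CPM per gene.

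**Figure D1:**
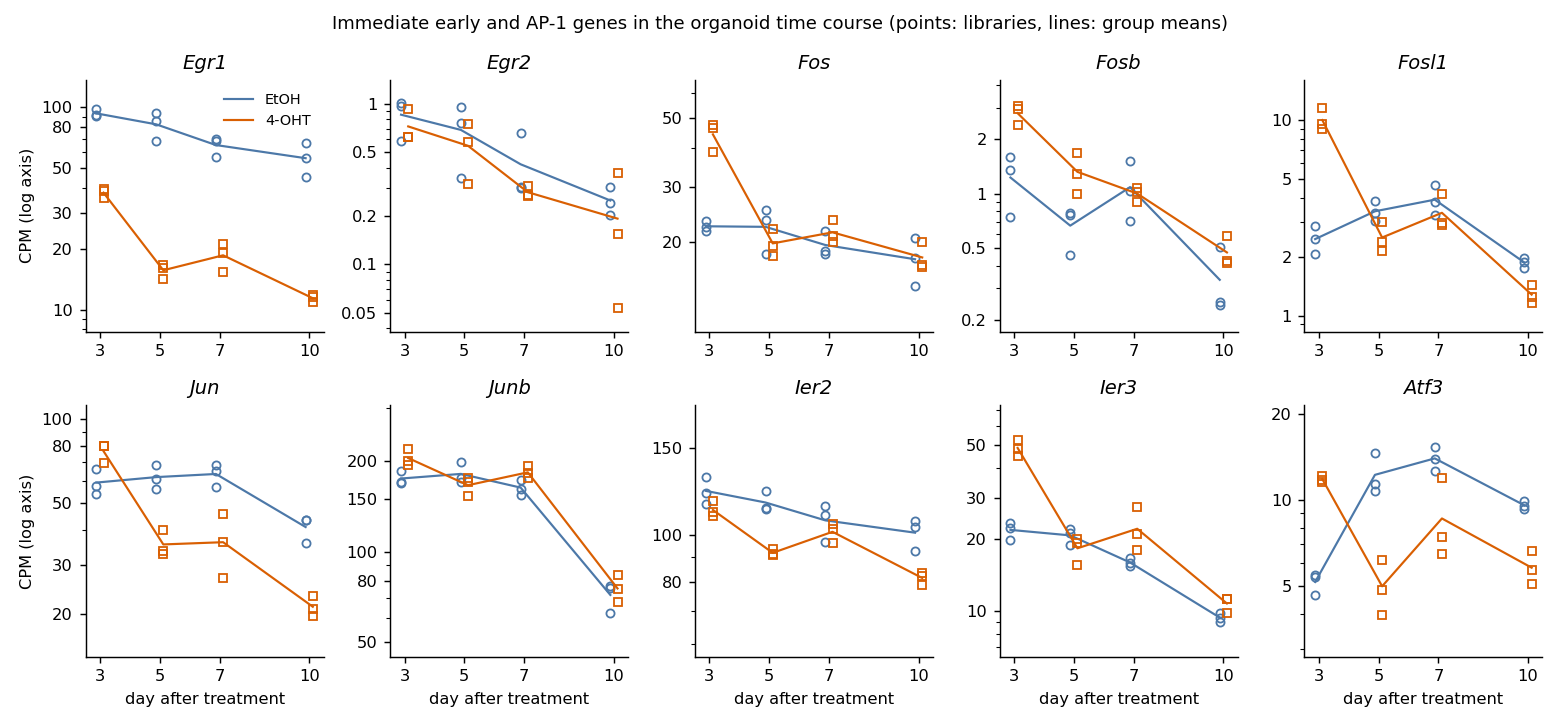
CPM (log axis) of the 10 members against the day after treatment in VillinCreERT2/Cdk8 fl/fl/Cdk19-/- organoids, with 1 point per library (blue circles, EtOH; orange squares, 4-OHT) and lines through the group means. All 3 libraries with 4-OHT lie below those with EtOH for Egr1 on all 4 days. On day 3 they lie above them for Fos, Fosb, Fosl1, Jun, Junb, Ier3 and Atf3, of which Jun and Junb were not past the cutoffs.

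The time course asks how the members respond as CDK8 is lost. On day 3, 6 of the 10 members were past the cutoffs (Benjamini-Hochberg adjusted p under 0.05 in edgeR's quasi-likelihood test and a fold change over 1.5), as were 12.4% of the 15447 genes tested. Fos, Fosb, Fosl1, Ier3 and Atf3 were higher with 4-OHT (6.42% of all genes) and Egr1 was lower (5.95%). On day 5, 4 members were past them (13.2% of all genes), with Fosb higher (8.58%) and Egr1, Jun and Atf3 lower (4.62%). On days 7 and 10 the same 3, Egr1, Jun and Atf3, were lower and none was higher, where 18.3% and 15.8% of all genes were past the cutoffs and 9.25% and 6.92% were lower. The median log2 fold change of the members was 0.68 on day 3, -0.33 on day 5, -0.17 on day 7 and -0.33 on day 10, and that of all genes stayed between -0.02 and 0.02.

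Egr1, a zinc finger factor and early target of ERK signals, was the member most reduced. On day 3 the EtOH libraries held 97.8, 91.4 and 90.9 CPM and the 4-OHT libraries 39.3, 38.7 and 35.6 CPM. On day 5 they held 93.9, 67.9 and 85.6 CPM with EtOH and 16.7, 16.1 and 14.2 CPM with 4-OHT. The groups lay far apart on both days. On day 7 the EtOH libraries were at 56.9, 68.6 and 69.9 CPM and the 4-OHT libraries at 15.4, 19.2 and 21.2 CPM, and on day 10 at 45.4, 56.5 and 66.4 against 10.9, 11.5 and 11.8 CPM. The log2 fold changes were -1.30 (SE 0.12, adjusted p = 1.6e-08) on day 3, -2.40 (SE 0.13, adjusted p = 6.3e-12) on day 5, -1.81 (SE 0.13, adjusted p = 2.0e-10) on day 7 and -2.30 (SE 0.14, adjusted p = 7.9e-12) on day 10. Egr2, its relative, passed no cutoff on any day, with log2 fold changes between -0.56 and -0.24 at 1 to 19 counts per library.

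Among the FOS genes, which pair with JUN proteins in AP-1, Fos and Fosl1 were higher with 4-OHT on day 3 alone, and Fosb on days 3 and 5. Fos was at 22.3, 21.6 and 23.3 CPM with EtOH on day 3 and at 47.3, 46.4 and 38.9 CPM with 4-OHT, a log2 fold change of 0.98 (SE 0.12, adjusted p = 1.1e-07). Fosl1, which encodes FRA-1, was at 2.05, 2.87 and 2.45 CPM against 11.4, 8.97 and 9.46 CPM, a log2 fold change of 2.01 (SE 0.18, adjusted p = 4.3e-10). Neither pair of groups overlapped. On days 5, 7 and 10 Fos held 19.7 ± 2.04, 21.4 ± 1.76 and 17.8 ± 1.87 CPM with 4-OHT against 22.3 ± 3.59, 19.5 ± 1.81 and 17.5 ± 3.06 CPM with EtOH, all within the spread of the libraries. Fosl1 with 4-OHT was at 2.5 ± 0.443, 3.35 ± 0.731 and 1.28 ± 0.144 CPM against 3.41 ± 0.408, 3.90 ± 0.693 and 1.86 ± 0.115 CPM, and no difference passed, although the libraries did not overlap on days 5 and 10. Without day 5 4-OHT replicate 2 the day 5 value of Fosl1 passed at -0.60 (adjusted p = 0.0383). Fosb was higher on day 3, with a log2 fold change of 1.18 (SE 0.28, adjusted p = 0.0016) at 14 to 64 counts. On day 5 its value was 0.98 (SE 0.34, adjusted p = 0.023), which was no longer past the cutoffs at 0.76 (adjusted p = 0.113) without EtOH replicate 2 and at 0.76 (adjusted p = 0.132) without 4-OHT replicate 2.

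Jun and Junb, partners of FOS, differed from each other. Jun held 61.1, 55.9 and 68.7 CPM with EtOH on day 5 and 33.6, 32.7 and 40.0 CPM with 4-OHT. On day 10 it held 36.0, 43.4 and 43.4 CPM against 20.8, 23.1 and 19.6 CPM. Its log2 fold change was 0.38 (SE 0.13, adjusted p = 0.034) on day 3, under the fold cutoff, and then -0.80 (SE 0.14, adjusted p = 0.00012), -0.81 (SE 0.14, adjusted p = 5.5e-05) and -0.95 (SE 0.15, adjusted p = 1.8e-05) on days 5, 7 and 10. Junb had log2 fold changes of 0.23, -0.12, 0.17 and 0.07 on the 4 days, none past the cutoffs, at 205 ± 13.2 CPM with 4-OHT against 175 ± 9.19 CPM with EtOH on day 3. Jun thus fell from day 5 on while Junb passed no cutoff.

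Atf3, a stress-induced repressor of the ATF family, changed direction. On day 3 it held 4.64, 5.47 and 5.37 CPM with EtOH and 11.6, 11.7 and 12.2 CPM with 4-OHT, a log2 fold change of 1.2 (SE 0.18, adjusted p = 3.7e-06). On day 5 it held 10.7, 11.4 and 14.7 CPM with EtOH and 3.95, 4.83 and 6.18 CPM with 4-OHT, a log2 fold change of -1.30 (SE 0.18, adjusted p = 1.8e-06). The groups did not overlap on either day, and their order was opposite. On days 7 and 10 the log2 fold changes were -0.70 (SE 0.16, adjusted p = 0.00088) and -0.72 (SE 0.18, adjusted p = 0.0013). Without 4-OHT replicate 1 the day 7 value was -0.54 (adjusted p = 0.0112), under the fold cutoff.

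Ier3, whose product limits apoptosis, was higher on day 3, at 48.2, 52.6 and 44.8 CPM with 4-OHT against 22.3, 23.5 and 19.96 CPM with EtOH (log2 fold change of 1.15, SE 0.11, adjusted p = 1.9e-09). On day 7 its log2 fold change of 0.47 (SE 0.12, adjusted p = 0.0014) was under the fold cutoff, and rose past it to 0.59 (adjusted p = 0.000145) without 4-OHT replicate 1. Ier2, a nuclear protein of the same response, kept log2 fold changes between -0.34 and -0.08, all under the fold cutoff. By the largest value over the 4 days, though not on each day, Ier2 and Junb had the smallest fold changes. They were the members with the most CPM on day 3.

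Whether the response itself differed between days was tested as an interaction. From day 3 to day 5, 6 members fell in their response (20.2% of all genes were past the cutoffs in either direction, 9.01% lower). They were Egr1, Fos, Fosl1, Jun, Ier3 and Atf3, with differences from -1.09 for Egr1 to -2.49 for Atf3 on the log2 scale. These 6 also had lower responses on day 10 than on day 3 (26.3% of all genes, 12.4% lower), with differences from -0.95 for Ier3 to -2.56 for Fosl1. From day 5 to day 7, Egr1 and Ier3 rose in their response (8.81% of all genes, 3.8% higher), by 0.59 (SE 0.19, adjusted p = 0.031) and 0.65 (SE 0.16, adjusted p = 0.0059). The call of Egr1 was lost at 0.58 (adjusted p = 0.0365), under the fold cutoff, with the replicate number as a block, at 0.55 to 0.57 with limma-voom, upper quartile normalization, at least 10 counts or only the groups compared, and at 0.48 to 0.57 without any 1 of 6 libraries, which are EtOH replicates 1 and 3 and 4-OHT replicate 3 of day 5, and EtOH replicate 1 and 4-OHT replicates 2 and 3 of day 7. That of Ier3 was lost at 0.55 (adjusted p = 0.0257) without day 5 4-OHT replicate 3 and at 0.47 (adjusted p = 0.0253) without day 7 4-OHT replicate 3. Atf3 passed at 0.79 (adjusted p = 0.038) and 0.77 (adjusted p = 0.0209) without day 5 4-OHT replicate 3 and day 7 4-OHT replicate 1. From day 7 to day 10 no member passed (6.41% of all genes), with 2 of 10 at an unadjusted p under 0.05 (30.4% of all genes), and DESeq2 and limma-voom also called 0. Egr1 passed at -0.62 without day 10 EtOH replicate 1 and at -0.60 without day 7 4-OHT replicate 1.

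RNA of cell type markers moved along with these differences. Summed CPM of 8 enterocyte markers were 4708 to 5127 with EtOH and 1754 to 2091 with 4-OHT on day 3, and 6 stem cell markers summed to 2238 to 2257 against 2783 to 2878 CPM. On day 10 the enterocyte markers stood at 5767 to 6813 with EtOH and 6990 to 8166 with 4-OHT, and the stem cell markers at 3824 to 4159 and 2131 to 2320 CPM. Paneth cell markers stood at 8138 to 8332 with EtOH and at 2135 to 2531 CPM with 4-OHT on day 10. On that day 3 of 3 tuft cell markers tested (median log2 fold change of -2.19) and 2 of 5 proliferation markers (-0.50) were also lower with 4-OHT. On days 5 and 7, 6 of 6 Paneth cell markers, 4 of 6 stem cell markers and 3 of 3 tuft cell markers tested were lower with 4-OHT (tuft medians of -1.62 and -1.81), as were 3 and 4 of 5 proliferation markers (-0.68 and -0.80). On day 7, 1 of 2 mesenchyme markers tested was lower with 4-OHT (-2.32). The 6 mesenchyme markers summed to 32.5 CPM in day 7 EtOH replicate 2 and to 1.01 and 1.02 CPM in replicates 1 and 3. The part of all these markers in the results was not tested, and in bulk RNA fewer cells of a type and less RNA per cell cannot be told apart.

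Members also moved in EtOH organoids over time. From day 3 to day 5, Atf3 rose with a log2 fold change of 1.25 (SE 0.18, adjusted p = 4.7e-06) and Fosb fell with -0.88 (SE 0.34, adjusted p = 0.046), where 12% of all genes were past the cutoffs, 2.82% higher and 9.14% lower. The fall of Fosb, at 9 to 30 counts, was lost at -1.02 to -0.65 without any 1 of 5 of the 6 libraries (all but day 3 replicate 3), and also with DESeq2, at -0.87 (adjusted p = 0.0589), and with limma-voom, at -0.83 (adjusted p = 0.0712). Fosl1 passed at 0.60 (adjusted p = 0.0499) without day 3 replicate 2. Of the markers, 4 of 8 for enterocytes (median of 0.54) and 1 of 6 for Paneth cells were higher on day 5 than on day 3, and 1 of 3 tested for tuft cells was lower. From day 5 to day 7 no member passed (0.57% of all genes), with 2 of 10 at an unadjusted p under 0.05 (17.5% of all genes) and 0 called by DESeq2 and limma-voom. From day 7 to day 10, 5 members were lower (23.3% of all genes in either direction, 13.9% lower). Beside them 3 of 3 tuft cell markers tested (median of -1.27), 3 of 8 enterocyte markers and 1 of 2 mesenchyme markers tested (-4.90) were lower. Of 6 stem cell markers 3 were higher, as were 1 enterocyte and 1 Paneth cell marker, and the part of all these markers was not tested.

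Of these 5, Junb showed the firmest difference. It was at 174, 162 and 155 CPM on day 7 and at 75.7, 62.5 and 77.1 CPM on day 10, a log2 fold change of -1.19 (SE 0.08, adjusted p = 1.2e-12). Fosb had -1.69 (SE 0.39), Fosl1 -1.06 (SE 0.20), Ier3 -0.77 (SE 0.13) and Jun -0.63 (SE 0.14). Jun was under the fold cutoff at -0.55 (adjusted p = 0.00509) without day 10 replicate 1 and at -0.57 (adjusted p = 0.00397) without day 7 replicate 3, and Atf3 passed at -0.63 (adjusted p = 0.00529) without day 7 replicate 1. Egr1, Fos and Ier2 had log2 fold changes of -0.22, -0.15 and -0.08 and did not pass. Jund, a further partner in AP-1, was lower on day 10 at -1.03 (SE 0.09), as 1 of 4 of the 8 AP-1 partners tested, with none higher. In the SRF, TCF and ERK list 4 of 16 genes were lower and none higher, Srf itself at -0.71 (SE 0.07), Mkl1, a cofactor of SRF, at -0.88 (SE 0.07), Elk1, a TCF, at -0.74 (SE 0.12) and Mapk3, which encodes ERK1, at -0.60 (SE 0.07). Of 34 other immediate early genes tested, 12 were lower and 2 higher (median of -0.33), among them Dusp1, lower at -2.08 (SE 0.17), and Sgk1, higher at 0.75 (SE 0.17). With 4-OHT, Junb was at 184 ± 8.5 CPM on day 7 and 75.4 ± 7.69 CPM on day 10, without overlap.

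Over the 24 libraries of the time course, pairs of members had a Pearson r of log2 CPM between 0.0134 (Atf3 and Egr2) and 0.886 (Ier3 and Fos). Ier3 had 0.872 with Fosl1 and 0.860 with Fosb, and Egr1 had 0.833 with Ier2 and 0.0284 with Fosb. Jun had 0.786 with Egr1 and 0.757 with Fosl1. These values are descriptions over libraries that share days and arms. The genes whose log2 CPM most resembled the mean of the 10 standardized members were Etv4 (r = 0.968), Ly6e (0.961), Ergic1 (0.954), Ctc1 (0.954) and Irak1 (0.952), among 11590 genes averaging at least 50 counts. Etv4 encodes an ETS factor.

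Other genes of the pathway were read from lists. Of 34 other immediate early genes tested, 11 were higher and 1 lower on day 3 (median log2 fold change of 0.24). On day 5, 3 were higher and 6 lower, on day 7 it was 2 and 3, and on day 10 it was 2 and 8. On day 3 the largest rises were of Ctgf, a YAP target that encodes a matrix protein, with a log2 fold change of 4.07 (SE 0.43), Plk2, a kinase, with 1.64 (SE 0.14), and Gem, a small GTPase, with 1.48 (SE 0.29). Cebpb was lower there, at -0.89 (SE 0.10). Myc, the growth factor response gene that is also a Wnt target, was lower on day 5 at -0.73 (SE 0.07), on day 7 at -0.91 (SE 0.07) and on day 10 at -1.13 (SE 0.07). Its level on day 10 was 71.2 ± 5.95 CPM with 4-OHT and 156 ± 2.84 CPM with EtOH. Of 16 genes of the SRF, TCF and ERK route, 2 were higher and none lower on day 3, which were Egfr, the EGF receptor, at 42.2 ± 1.48 against 25.9 ± 1.35 CPM, and Elk3, a TCF, at 0.83 (SE 0.27). Elk3 was the 1 that passed on day 5, higher at 0.84 (SE 0.30). On days 7 and 10 none of the 16 passed in either direction, and their medians were 0.05 and -0.09. Of 8 other AP-1 partners tested, Batf2 was the 1 gene past the cutoffs on days 5, 7 and 10, higher each time, and none passed on day 3. Of 7 genes of the Mediator kinase module, Med13l was lower on day 10, at -0.66 (SE 0.08), and none passed on the other days. Of 8 heat shock genes none was higher on any day, and 0, 2, 3 and 2 were lower on days 3, 5, 7 and 10, with Hspd1, a mitochondrial chaperone, among the last 3 counts.

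**Figure D2:**
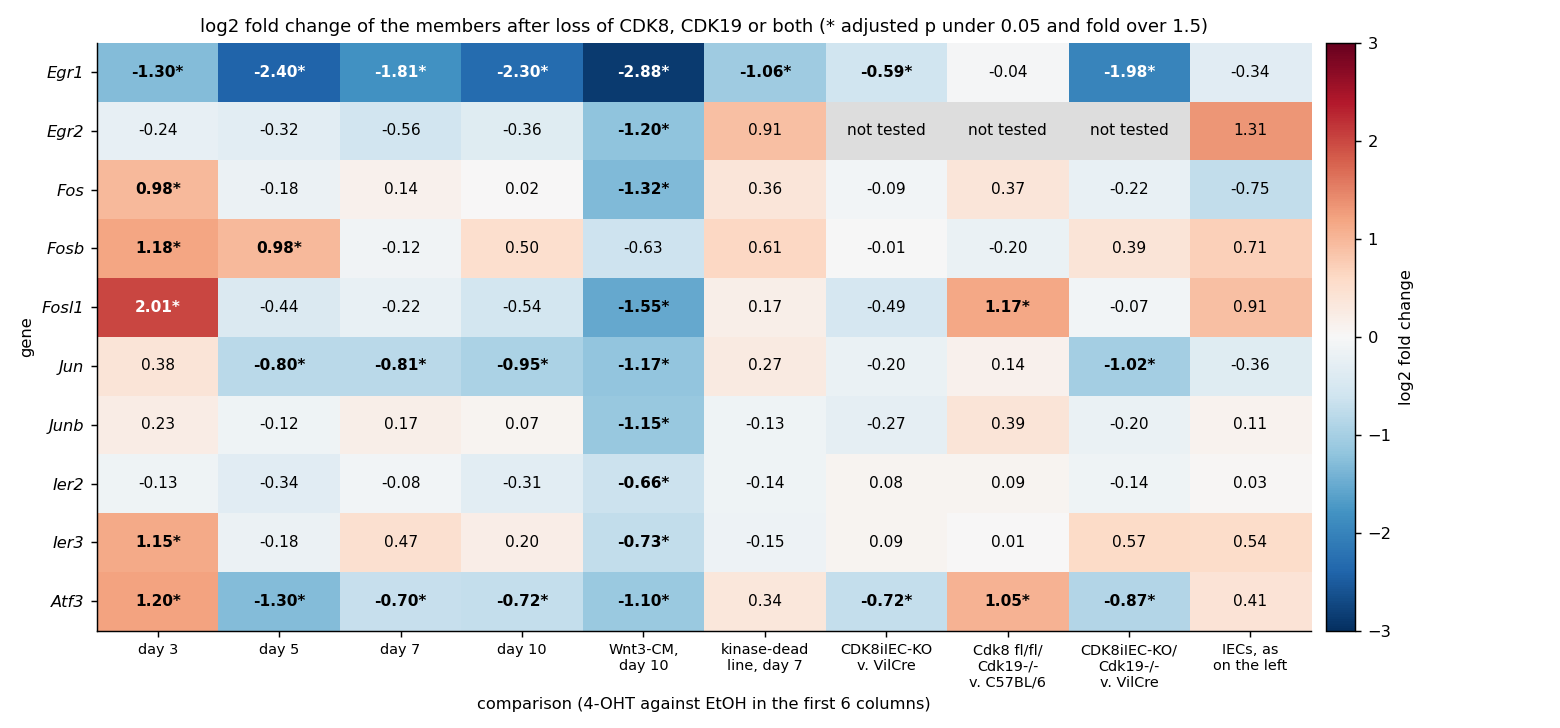
Log2 fold changes of the 10 members (rows) in 10 comparisons that remove CDK8, CDK19 or both (columns, where VilCre is VillinCreERT2; blue lower, red higher, asterisk for adjusted p under 0.05 and fold over 1.5, grey not tested). The row of Egr1 runs from -2.88 in Wnt3-CM to -0.04 in Cdk8 fl/fl/Cdk19-/- organoids, and 9 of 10 members carry an asterisk in Wnt3-CM, all lower.

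The 5 organoid genotypes on day 7 set loss of each kinase beside loss of both. With 9 members tested (Egr2 was under the filter on low counts), 2 were lower in CDK8iIEC-KO than in VillinCreERT2 organoids (7.23% of 15125 genes, 4.34% lower), 2 were higher in Cdk8 fl/fl/Cdk19-/- than in C57BL/6 organoids (5.25%, 2.86% higher), and 3 were lower in CDK8iIEC-KO/Cdk19-/- than in VillinCreERT2 organoids (19.4%, 7.95% lower). The medians of the members were -0.20, 0.14 and -0.20 on the log2 scale, with those of all genes between -0.01 and 0.02.

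Egr1 was lower with loss of CDK8 and lowest with loss of both kinases. Its libraries held 26.2, 27.0 and 21.3 CPM in VillinCreERT2, 36.7, 35.9 and 30.4 in C57BL/6 and 28.6, 37.7 and 33.5 CPM in Cdk8 fl/fl/Cdk19-/- organoids. They held 16.5, 15.2 and 17.7 CPM in CDK8iIEC-KO and 6.01, 7.11 and 5.70 CPM in CDK8iIEC-KO/Cdk19-/- organoids. The log2 fold changes were -0.59 (SE 0.11, adjusted p = 0.00018) for CDK8iIEC-KO, -0.04 (SE 0.10, adjusted p = 0.83) for Cdk8 fl/fl/Cdk19-/- and -1.98 (SE 0.13, adjusted p = 7.5e-12) for both kinases. The CDK8iIEC-KO value lies just past the 1.5-fold cutoff and was under it, at -0.53 to -0.55, without any 1 of 3 libraries (CDK8iIEC-KO replicate 2, VillinCreERT2 replicates 1 and 2). The value in the double knockout differed from the sum of the 2 single ones by -1.35 (SE 0.17, adjusted p = 8.9e-07). Egr1, Jun and Atf3 were lower than that sum (19.6% of all genes were past the cutoffs, 8.34% lower). VillinCreERT2 cancels from this difference, which therefore rests on the C57BL/6 level. With VillinCreERT2 as the control of both single knockouts, an alternative chosen after the data were seen, Egr1 had -1.81 (adjusted p = 8.66e-09) and was the 1 member still past the cutoffs and below the sum.

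Jun was lower where both kinases were lost. It held 45.7, 45.1 and 46.8 CPM in VillinCreERT2 and 22.8, 24.4 and 20.7 CPM in CDK8iIEC-KO/Cdk19-/- organoids, with -1.02 on the log2 scale (SE 0.09, adjusted p = 2.4e-10). In CDK8iIEC-KO organoids it had -0.20 (SE 0.08, adjusted p = 0.061) and in Cdk8 fl/fl/Cdk19-/- organoids 0.14 (SE 0.09, adjusted p = 0.33). The excess over the sum was -0.96 (SE 0.12, adjusted p = 8.1e-07), and with VillinCreERT2 as the control of both single knockouts it was -0.28 (adjusted p = 0.0635). Jun was lower in C57BL/6 than in VillinCreERT2 organoids, at 28.7 ± 2.65 against 45.8 ± 0.861 CPM.

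Values of Atf3 and Fosl1 turned on the control line. Atf3 was at 36.1, 37.6 and 34.2 CPM in VillinCreERT2 but at 12.6, 14.7 and 11.3 CPM in C57BL/6 organoids, with no overlap. It held 21.8 ± 0.971 CPM in CDK8iIEC-KO, 26.6 ± 2.94 in Cdk8 fl/fl/Cdk19-/- and 19.6 ± 2.76 CPM in CDK8iIEC-KO/Cdk19-/- organoids. Each of these means lies between those of both controls. Against the controls used by the study, its log2 fold changes were -0.72 (SE 0.09), 1.05 (SE 0.10) and -0.87 (SE 0.09), and with the mean of both controls the last was -0.13 (adjusted p = 0.228). Its excess over the sum, -1.20, turned to 0.28 (adjusted p = 0.0959) with VillinCreERT2 as the control of both single knockouts. Fosl1 was at 2.61, 2.16 and 2.60 CPM in VillinCreERT2 and at 0.952, 0.511 and 0.466 CPM in C57BL/6 organoids. It held 2.21, 2.48 and 2.33 CPM in CDK8iIEC-KO/Cdk19-/- organoids, and its log2 fold change of -0.07 against VillinCreERT2 turned to 0.90 (adjusted p = 0.00142) against the mean of both controls. Its value in Cdk8 fl/fl/Cdk19-/- organoids, 1.17 (SE 0.32, adjusted p = 0.013), was lost without any 1 of 3 libraries, at 0.98 to 1.03 (adjusted p from 0.0662 to 0.0764), these being Cdk8 fl/fl/Cdk19-/- replicate 2 and C57BL/6 replicates 2 and 3. In CDK8iIEC-KO organoids it had -0.49 (SE 0.22, adjusted p = 0.095), and passed at -0.68 (adjusted p = 0.0453) without CDK8iIEC-KO replicate 3. Its excess over the sum, -0.74 (SE 0.40, adjusted p = 0.13), passed at -1.12 (adjusted p = 0.0384) without C57BL/6 replicate 1 and turned to 1.198 (adjusted p = 0.00484) with VillinCreERT2 as the control of both single knockouts, where Fosb was above the sum as well, at 1.17 (adjusted p = 0.0224).

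The 2 control lines differed in 3 members, with Fosl1, Jun and Atf3 lower in C57BL/6 at -1.94 (SE 0.28), -0.68 (SE 0.08) and -1.48 (SE 0.10) on the log2 scale, where 26.4% of all genes were past the cutoffs and 10.9% were lower. Egr1 was higher there at 0.47 (SE 0.10, adjusted p = 0.00041), under the fold cutoff. Against the mean of both controls, Egr1 and Jun were still past the cutoffs and lower in CDK8iIEC-KO/Cdk19-/- organoids, and Fosb was higher at 0.68 (adjusted p = 0.0223).

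Fos held 18.2, 22.5 and 17.0 CPM in VillinCreERT2 and 17.8, 16.3 and 15.4 CPM in CDK8iIEC-KO/Cdk19-/- organoids, and its difference did not pass in any of the 3 knockout lines. Ier3 was at 8.77 ± 0.131 CPM in VillinCreERT2 and at 13.1 ± 2.11 CPM in CDK8iIEC-KO/Cdk19-/- organoids, where its log2 fold change of 0.57 (SE 0.12, adjusted p = 0.00018) was just under the fold cutoff. Without CDK8iIEC-KO/Cdk19-/- replicate 3 it passed at 0.70 (adjusted p = 3.4e-05), as did its excess over the sum at 0.59 (adjusted p = 0.0048). Ier2 and Junb had log2 fold changes of 0.08 and -0.27 in CDK8iIEC-KO, 0.09 and 0.39 in Cdk8 fl/fl/Cdk19-/- and -0.14 and -0.20 in CDK8iIEC-KO/Cdk19-/- organoids, none past the cutoffs.

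Among 31 other immediate early genes, 0 were higher and 4 lower in CDK8iIEC-KO, 2 and 1 in Cdk8 fl/fl/Cdk19-/-, and 1 and 7 in CDK8iIEC-KO/Cdk19-/- organoids. Plk2 was lower in CDK8iIEC-KO at -1.07 (SE 0.14) and in CDK8iIEC-KO/Cdk19-/- organoids at -1.60 (SE 0.15). It was at 13.9 ± 1.39 CPM in VillinCreERT2 but at 4.56 ± 0.764 CPM in C57BL/6 organoids, so its value also turned on the control. Myc was lower in CDK8iIEC-KO/Cdk19-/- organoids at -0.97 (SE 0.06). None of 15 genes of the SRF, TCF and ERK route passed in any of these 3 comparisons. Among 9 AP-1 partners 1, Jdp2, was lower in CDK8iIEC-KO/Cdk19-/- organoids at -1.52 (SE 0.37) and none passed in the single knockouts. Jdp2 was lower still in C57BL/6 than in VillinCreERT2 organoids, at -2.78 (SE 0.46). Med13l of the Mediator kinase module was lower in CDK8iIEC-KO/Cdk19-/- organoids at -0.77 (SE 0.09). Of 9 heat shock genes, 2 were lower in CDK8iIEC-KO, 0 in Cdk8 fl/fl/Cdk19-/- and 2 in CDK8iIEC-KO/Cdk19-/- organoids, each time Hspa1a and Hspa1b, near-identical copies whose reads the counting could split. Both were also lower in C57BL/6 than in VillinCreERT2 organoids, Hspa1a at -1.21 (SE 0.35) and Hspa1b at -1.66 (SE 0.18). Paneth cell markers summed to 2778 to 2903 CPM in VillinCreERT2, 4947 to 6143 in C57BL/6 and 854 to 890 CPM in CDK8iIEC-KO/Cdk19-/- organoids, and stem cell markers to 1695 to 2020, 1661 to 1744 and 736 to 999 CPM. All 4 tuft cell markers tested were lower in CDK8iIEC-KO/Cdk19-/- organoids as well (median of -2.47). In CDK8iIEC-KO organoids 4 of 8 enterocyte markers were lower (-0.62) and 1 of 6 stem cell markers higher, and in Cdk8 fl/fl/Cdk19-/- organoids 2 of 6 stem cell markers (-0.45) and 1 of 6 Paneth cell markers were lower. In the excess over the sum, 6 of 8 enterocyte markers were higher (median of 0.87), and 4 of 6 Paneth cell markers (-1.40) and 4 of 4 tuft cell markers tested (-2.00) were lower. Of 6 stem cell markers 3 were lower and 1 higher there (-0.81), and 1 of 5 proliferation markers was lower. The part of all these markers in the values of the members was not tested.

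**Figure D3:**
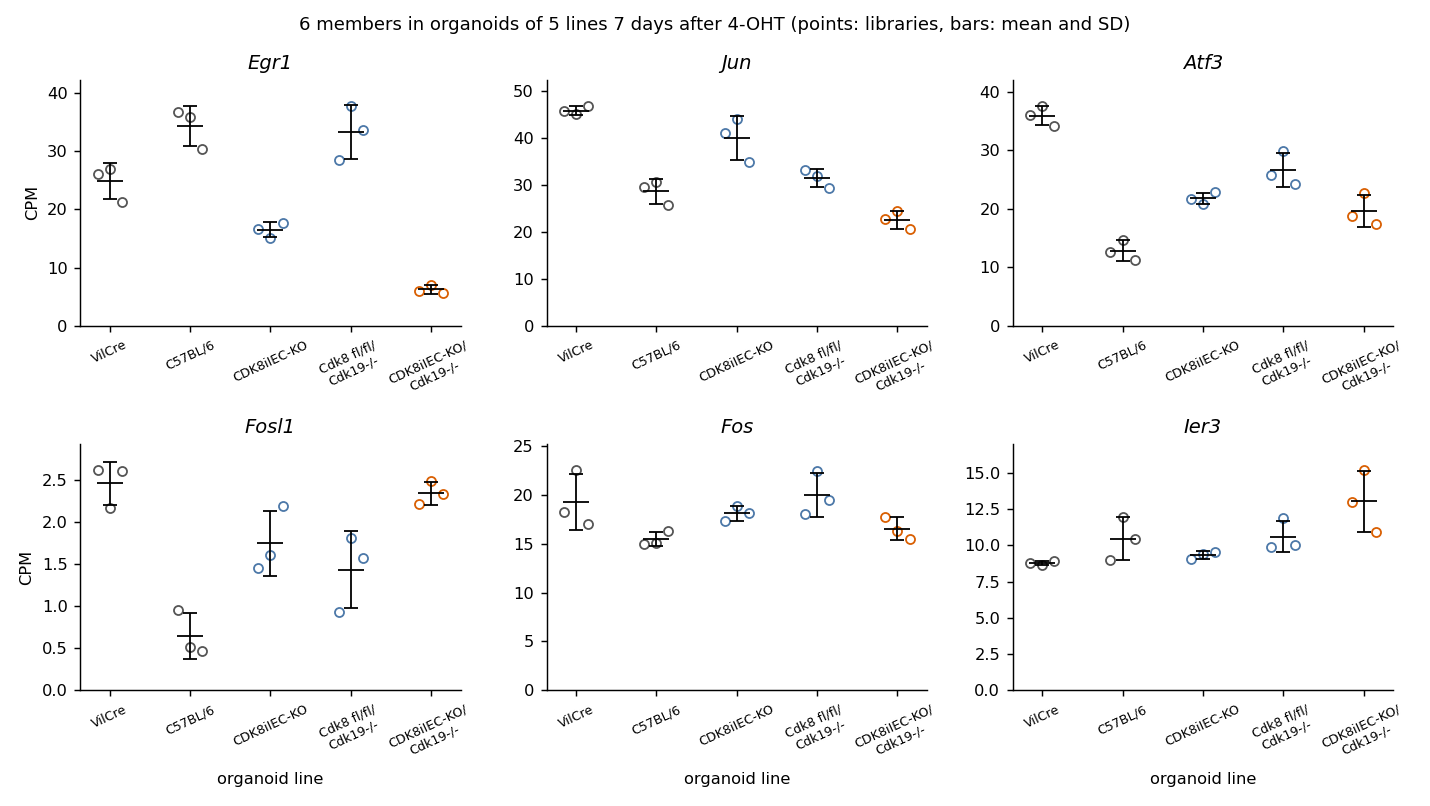
CPM of 6 members in organoids of 5 genotypes 7 days after 4-OHT, with 1 point per library and bars for the mean and SD. Egr1 is lowest in CDK8iIEC-KO/Cdk19-/- organoids at 6.28 ± 0.740 CPM, and Atf3 stands at 36.0 ± 1.67 CPM in VillinCreERT2 (VilCre) and 12.9 ± 1.73 CPM in C57BL/6 organoids, with all 3 knockout lines between them.

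In Wnt3-CM, the medium that carries Wnt3 from producing cells, the members were widely lower after 4-OHT. Of the 10 members, 9 were lower with 4-OHT (16.9% of 13745 genes in either direction, 7.42% lower) and none was higher. The median of the members was -1.16 on the log2 scale and that of all genes was 0.00. The libraries of both arms did not overlap for any of the 10, which holds for 56.3% of all genes.

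Egr1 again fell most, from 103, 121 and 123 CPM with EtOH to 13.6, 17.2 and 16.2 CPM with 4-OHT (log2 fold change of -2.88, SE 0.09, adjusted p = 4.4e-15). Fos held 102, 115 and 104 CPM with EtOH and 41.8, 44.9 and 42.0 CPM with 4-OHT (-1.32, SE 0.07, adjusted p = 2.1e-12). Fosl1 held 8.89, 12.4 and 10.1 CPM against 3.28, 3.31 and 4.16 CPM (-1.55, SE 0.16, adjusted p = 4.8e-08). Both FOS genes thus fell in this medium, where neither passed on day 10 in standard medium. Jun was at 48.7, 57.7 and 58.5 CPM with EtOH and at 25.6, 24.5 and 23.0 CPM with 4-OHT (-1.17, SE 0.08), and Junb at 239, 258 and 252 against 132, 104 and 102 CPM (-1.15, SE 0.09). Atf3 was at 26.4, 36.1 and 35.8 CPM against 15.3, 14.6 and 15.8 CPM (-1.10, SE 0.11). Ier2 and Ier3 fell by less, at -0.66 (SE 0.07) and -0.73 (SE 0.11).

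The 2 members with the fewest reads were the least certain. Egr2 had -1.20 (SE 0.36, adjusted p = 0.0089) at 7 to 23 counts and did not pass without EtOH replicate 1, at -0.99 (adjusted p = 0.0584). Fosb had -0.63 (SE 0.27, adjusted p = 0.057) and passed without that same library, at -0.79 (adjusted p = 0.0259).

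The baseline was set beside standard medium on day 10 in a joint fit of 12 libraries. With EtOH, 8 members were higher in Wnt3-CM and none was lower (23.3% of 14337 genes in either direction, 11.8% higher). Fos was at 109 ± 6.78 CPM in Wnt3-CM and 17.6 ± 3.04 CPM in standard medium on the joint scale, a log2 fold change of 2.63 (SE 0.10, adjusted p = 4.2e-14). Fosl1 followed at 2.5 (SE 0.17), Fosb at 2.32 (SE 0.33), Egr2 at 1.91 (SE 0.42), Junb at 1.82 (SE 0.10) and Atf3 at 1.79 (SE 0.12). Egr1 and Ier3 had 1.06 (SE 0.11) and 1.03 (SE 0.11), while Jun at 0.44 (SE 0.09) and Ier2 at 0.42 (SE 0.07) were under the fold cutoff. The median was 1.80 for the members and -0.03 for all genes. Cell type markers moved with the medium too. Of 8 enterocyte markers 5 were lower with EtOH in Wnt3-CM (median of -1.64), as were 5 of 6 stem cell markers (-1.07) and 4 of 5 proliferation markers (-0.91), while 4 of 4 tuft cell markers tested (2.49) and 4 of 6 general markers of epithelium (0.78) were higher. Their part in the levels of the members was not tested. The 2 media come from separate tables, so medium and any difference between the sets of libraries cannot be told apart.

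The 4-OHT response in Wnt3-CM was lower than that on day 10 in standard medium for 5 members (13.3% of all genes in either direction, 6.21% lower). The differences were -1.34 (SE 0.14) for Fos, -1.22 (SE 0.14) for Junb, -1.01 (SE 0.28) for Fosl1, -0.93 (SE 0.15) for Ier3 and -0.59 (SE 0.18, adjusted p = 0.02) for Egr1. That of Egr1 was lost at -0.45 to -0.58 without any 1 of 6 libraries, which are day 10 EtOH replicate 1 and 4-OHT replicates 2 and 3 in standard medium, and EtOH replicates 2 and 3 and 4-OHT replicate 1 in Wnt3-CM. Fosb, at -1.13 (SE 0.49, adjusted p = 0.094), passed at -1.54 (adjusted p = 0.0414) without day 10 EtOH replicate 3. Jun, with -0.22 (SE 0.13, adjusted p = 0.21), showed no difference past the cutoffs. With 4-OHT, Fos stood at 43.2 ± 1.63 CPM in Wnt3-CM and 17.7 ± 1.79 CPM in standard medium, and Egr1 at 15.8 ± 1.88 and 11.3 ± 0.394 CPM. These 4-OHT levels were not tested against each other. Of 8 enterocyte markers 6 were higher in their response in Wnt3-CM than on day 10 in standard medium (median of 0.83), as were 4 of 6 stem cell markers (0.79). Of 6 general markers of epithelium 3 were lower (-0.59), as was 1 of 4 tuft cell markers tested (-1.10), and none of 6 Paneth cell markers passed. The part of these markers in the differences was not tested.

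**Figure D4:**
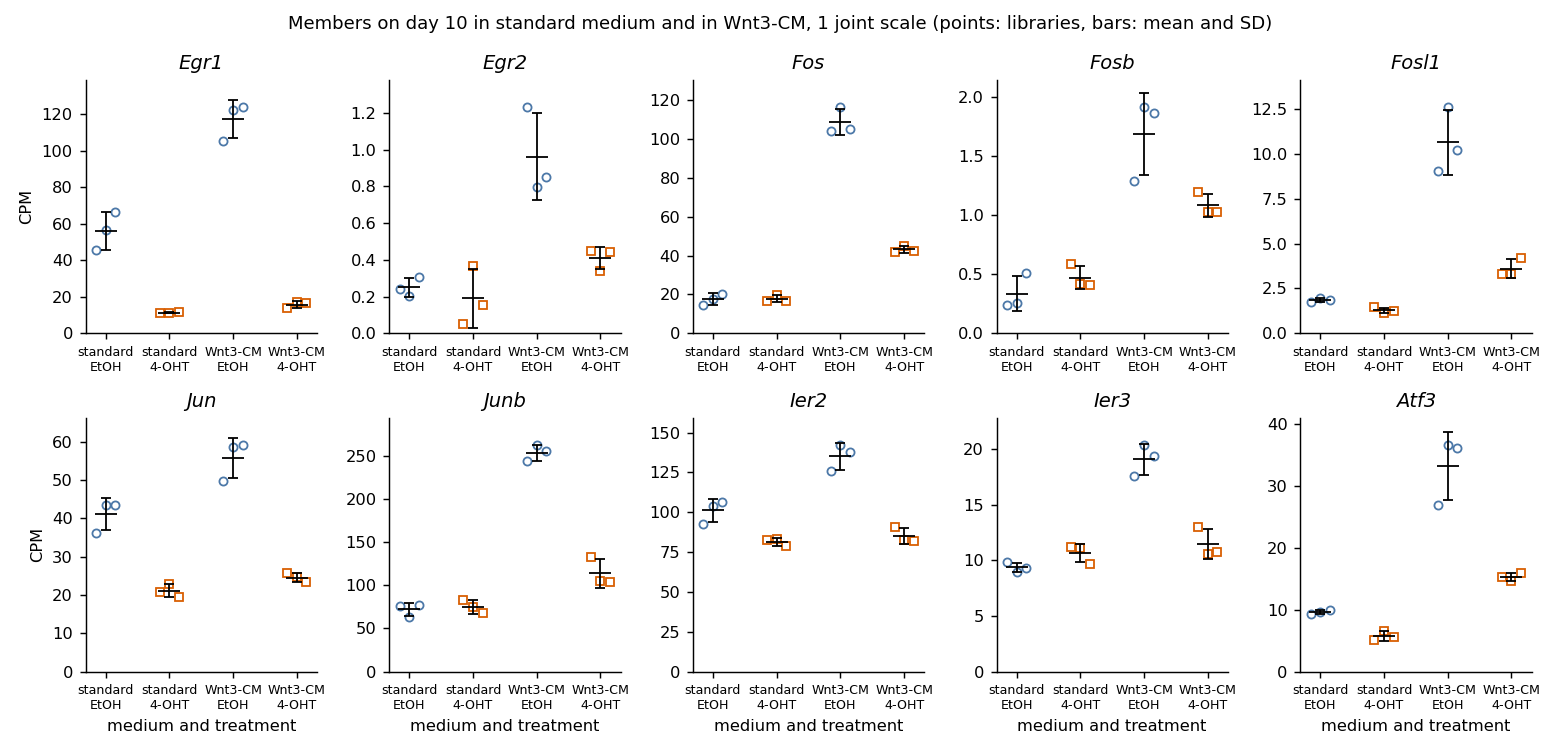
CPM of the 10 members on day 10 in standard medium and in Wnt3-CM, on 1 joint scale, with 1 point per library (blue circles, EtOH; orange squares, 4-OHT) and bars for the mean and SD. The EtOH libraries in Wnt3-CM are the highest of the 4 groups for every member, with Fos at 109 ± 6.78 CPM against 17.6 ± 3.04 CPM in standard medium.

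Other immediate early genes moved in Wnt3-CM as well. Of 33 other immediate early genes, 16 were lower with 4-OHT and 1, Sgk1, was higher, and with EtOH 17 were higher in Wnt3-CM than in standard medium and none was lower. Gem fell at -1.79 (SE 0.20), Nr4a1, an orphan nuclear receptor, at -1.54 (SE 0.22) and Ppp1r15a, a phosphatase subunit of the stress response, at -1.34 (SE 0.11). Fosl2, which encodes the AP-1 partner FRA-2, was lower at 98.4 ± 8.06 CPM with 4-OHT and 185 ± 6.86 CPM with EtOH. Of 16 genes of the SRF, TCF and ERK route, Egfr was the 1 that passed, lower at 35.3 ± 3.49 against 66.8 ± 7.38 CPM. Egfr was also among 4 of these 16 that were higher in Wnt3-CM with EtOH, with Elk3 and with Map2k1 and Braf, both kinases upstream of ERK. Of 8 AP-1 partners, Fosl2 was thus lower and Batf2 higher with 4-OHT, the latter at 0.97 (SE 0.09). In the Mediator kinase module Med12 was higher with 4-OHT at 0.74 (SE 0.08) and Med13l lower at -0.72 (SE 0.09). With EtOH, Med12 was lower in Wnt3-CM than in standard medium at -0.82 (SE 0.11). None of 8 heat shock genes passed in either comparison. Enterocyte markers summed to 5246 to 6427 with EtOH and 5972 to 6323 CPM with 4-OHT in Wnt3-CM, stem cell markers to 1716 to 1856 and 1721 to 1951, and Paneth cell markers to 6848 to 7572 and 1890 to 2322 CPM. The enterocyte sum hides single markers, since 6 of 8 were higher with 4-OHT (median log2 fold change of 1.14), while 6 of 6 Paneth cell markers (-1.71), 4 of 4 tuft cell markers tested (-3.32), 1 of 6 stem cell markers (-0.03) and 2 of 6 general markers of epithelium (-0.30) were lower. Their part was not tested.

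In the kinase-dead line, where Cdk19 D173A is the one Cdk19 allele left, Egr1 alone passed (12.3% of 15457 genes, 6.25% lower). It held 25.9, 32.7 and 30.3 CPM with EtOH and 14.7, 14.0 and 14.0 CPM with 4-OHT, a log2 fold change of -1.06 (SE 0.10, adjusted p = 4.5e-05). It passed in each fit with 1 library left out. Atf3 held 14.5, 13.9 and 12.3 CPM against 17.4, 17.5 and 16.7 CPM, a log2 fold change of 0.34 (SE 0.09, adjusted p = 0.023), under the fold cutoff. Jun was at 27.9, 25.9 and 28.4 against 36.7, 30.9 and 31.3 CPM (0.27, SE 0.09, adjusted p = 0.048) and Fos at 16.8, 20.1 and 20.3 against 22.3, 24.6 and 26.4 CPM (0.36, SE 0.10, adjusted p = 0.026). The arms did not overlap for 6 members (43.2% of all genes), and 4-OHT was the higher one for these 3 and for Egr2 and Fosb. Junb, Ier2 and Ier3 had log2 fold changes of -0.13, -0.14 and -0.15, and Fosl1, Fosb and Egr2 of 0.17, 0.61 and 0.91 (SE 0.24, 0.24 and 0.34), none past the cutoffs.

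Set beside the day 7 response of the Cdk19-/- line, 4 members differed (11.1% of 15636 genes, 4.9% higher and 6.25% lower). Jun was higher in its response by 1.08 (SE 0.20, adjusted p = 0.0019), Atf3 by 1.04 (SE 0.23, adjusted p = 0.0051) and Egr1 by 0.75 (SE 0.16, adjusted p = 0.0043), while Ier3 was lower by -0.63 (SE 0.21, adjusted p = 0.043). The call of Ier3 was lost at -0.66 to -0.46 without any 1 of 10 of the 12 libraries, all but kinase-dead 4-OHT replicate 3 and Cdk19-/- 4-OHT replicate 1. With EtOH, Egr1 was at 29.2 ± 3.40 CPM in the kinase-dead and 63.2 ± 6.77 CPM in the Cdk19-/- line on the joint scale, and with 4-OHT at 14.0 ± 0.414 and 18.1 ± 2.74 CPM. Jun was at 27.0 ± 1.27 and 61.7 ± 5.93 CPM with EtOH, against 32.5 ± 3.21 and 35.2 ± 8.76 CPM with 4-OHT. For both genes the EtOH levels of the lines lay further apart than the 4-OHT levels. Other lists differed between the 2 responses as well. In the kinase-dead line 3 of 9 heat shock genes (median of 0.67) and 4 of 8 enterocyte markers (0.65) were higher in their response, and of 6 Paneth cell markers 2 were lower and 1 higher. Their part was not tested, and line, Cdk19 allele and set of libraries cannot be told apart.

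Of 32 other immediate early genes in the kinase-dead line, 2 were higher and 4 lower, with Sgk1 at 1.02 (SE 0.12), Cyr61 at 0.81 (SE 0.20) and Myc at -0.74 (SE 0.06). None of 16 genes of the SRF, TCF and ERK route, of 7 genes of the Mediator kinase module or of 9 heat shock genes passed, and Batf2 was the 1 of 8 AP-1 partners that did, higher at 0.69 (SE 0.18). Enterocyte markers summed to 12704 to 13647 CPM with EtOH and to 17344 to 19926 CPM with 4-OHT, stem cell markers to 1166 to 1256 and 679 to 922 CPM, and Paneth cell markers to 3309 to 3530 and 1685 to 2003 CPM. All 4 tuft cell markers tested were lower with 4-OHT (median of -2.14), as was 1 of 5 proliferation markers. Their part was not tested.

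In IECs, no member passed between CDK8iIEC-KO/Cdk19-/- and VillinCreERT2 mice (1.5% of 15182 genes), with 2 of the 10 at an unadjusted p under 0.05 (19.9% of all genes), limma-voom calling 0 and DESeq2 calling 1. Fos was at 190, 157 and 210 CPM in VillinCreERT2 and 140, 78.8 and 113 CPM in CDK8iIEC-KO/Cdk19-/- IECs, without overlap, with a log2 fold change of -0.75 (SE 0.22, adjusted p = 0.15). It was past the cutoffs at -0.74 (adjusted p = 0.0172) with DESeq2 and at -0.79 (adjusted p = 0.00501) without the filter on low counts. Jun was at 89.1, 97.0 and 101 CPM against 87.6, 67.4 and 68.3 CPM (-0.36, SE 0.13, adjusted p = 0.19), again without overlap, which held for these 2 members and for 26.8% of all genes. Egr1 was at 7.85, 11.3 and 7.49 CPM against 10.2, 6.75 and 4.08 CPM, so the groups overlapped (-0.34, SE 0.34, adjusted p = 0.61). In organoids of the same genotype its log2 fold change was -1.98, and the difference between IECs and organoids was not tested.

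CDK8iIEC-KO/Cdk19-/- replicate 1 held the highest level of the 6 IEC libraries for Egr2, Fosb, Fosl1, Junb, Ier2, Ier3 and Atf3. Atf3 was at 32.7 CPM there and at 12.1 and 13.4 CPM in the other 2, against 11.7, 16.7 and 15.5 CPM in VillinCreERT2 IECs. Fosb was at 10.9 CPM there against 3.17 and 2.46 CPM, with 5.27, 2.34 and 2.46 CPM in the controls. No member passed without that library or without any other 1. Non-epithelial markers varied between the libraries, and none of 10 immune or 6 mesenchyme markers passed the test. The 10 immune markers summed to 972, 645 and 623 CPM in CDK8iIEC-KO/Cdk19-/- and to 77.6, 304 and 86.9 CPM in VillinCreERT2 IECs, without overlap, and the 6 mesenchyme markers to 815, 525 and 399 against 6.04, 800 and 41.1 CPM, with overlap. The 4 endothelial markers summed to 6.48 to 12.04 against 0.988 to 3.86 CPM. Markers that passed were 4 of 6 for Paneth cells (median of -1.99), 2 of 6 for stem cells (-0.98) and 2 of 4 tested for tuft cells (-1.57), all lower in CDK8iIEC-KO/Cdk19-/- IECs. No immune or mesenchyme marker was at 0 in all libraries of a group, and their part in these values was not tested. The Y-linked gene Ddx3y was at 30.2 CPM in CDK8iIEC-KO/Cdk19-/- replicate 2 and at 0 to 0.103 CPM in the other 5. Of the other lists, 1 of 34 other immediate early genes was lower, Homer1 at -0.62 (SE 0.10), and none of 10 AP-1 partners, 16 genes of the SRF, TCF and ERK route, 7 genes of the Mediator kinase module or 10 heat shock genes passed.

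**Figure D5:**
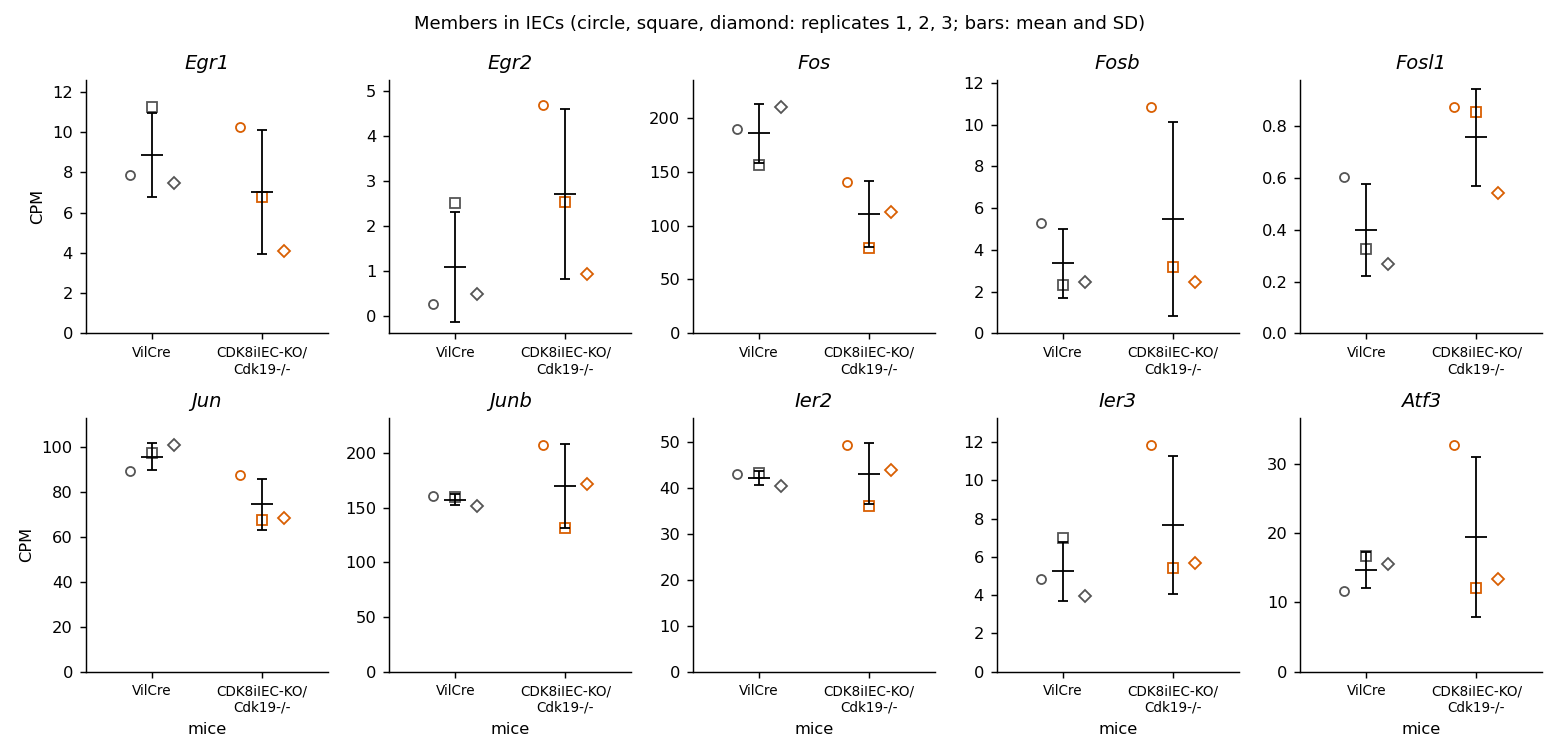
CPM of the 10 members in IECs of VillinCreERT2 (VilCre, grey) and CDK8iIEC-KO/Cdk19-/- mice (orange), with circles, squares and diamonds for replicates 1, 2 and 3 and bars for the mean and SD. The groups overlap for 8 of the 10 members, and for Fos and Jun all CDK8iIEC-KO/Cdk19-/- libraries lie below the controls.

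Across the 10 comparisons of the heat map, Egr1 was past the cutoffs in 8, always lower, Atf3 in 8 with 6 lower and 2 higher, and Jun in 5, always lower. Fosl1 passed in 3 (2 higher, 1 lower), Fos in 2 (1 and 1), Fosb in 2 (both higher) and Ier3 in 2 (1 and 1), and Egr2, Junb and Ier2 in 1 each, all lower and in Wnt3-CM. The 4 days share neither libraries nor controls with each other, while CDK8iIEC-KO and CDK8iIEC-KO/Cdk19-/- organoids were set against the same VillinCreERT2 libraries.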

How the data were processed

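Total RNA of organoids and IECs was sequenced by the authors, who deposited counts of reads per gene in 4 tables of 54752 Ensembl genes. The submitters' processing notes name STAR 2.5.2, Subread 1.6.3 with featureCounts and mm10, and counting by strand is not given in the sources used here. Libraries held 15485959 to 32909565 counts (median 19374952), and 6 columns whose names no label explains were not used, so kinase-dead IECs are not analysed here. GENCODE vM21 held 54723 of the 54752 IDs.

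Within each table, genes passing edgeR's filterByExpr were fitted after TMM normalization with the quasi-likelihood test of edgeR 4.0.16 (R 4.3.3), with Benjamini-Hochberg adjustment over all genes tested. A call needs an adjusted p under 0.05 and a fold over 1.5, each SE was taken from the estimate and its F statistic, and CPM use the normalized library sizes. Comparisons across tables were fitted jointly over 12 libraries. limma 3.58.1 and DESeq2 1.42.0 served as alternatives, beside other filters, normalization, cutoffs, controls and replicate settings. The fits were tested on simulated data. All 10 members are named in every comparison. Other genes named are the 3 largest rises and falls per list among called genes with a mean of 50 counts or more in 1 of the groups, and the 5 genes most like the members. Elk3, Jdp2, Hspa1a and Mapk3 were added after their values were seen. The members and lists were chosen with earlier results of these data known. Deviations from the group means of libraries with equal replicate numbers had a median correlation of 0.0129 (-0.137 to 0.232) in the time course. It was 0.0136 (-0.0744 to 0.111) among the 5 lines and -0.157 (-0.41 to 0.206) in IECs, so samples were not paired. These are the numbers in the sample titles, some of which differ from those in the column names. Pairing by the numbers in the column names was not examined.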

Additional observations from a re-analysis of the deposited data

Results flagged for a closer look

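In 26 cases the effect of 1 contrast differed between days, media or lines by a test of the difference itself, edgeR's quasi-likelihood test with Benjamini-Hochberg adjustment. Of all genes, 20.2% were past the cutoffs in either direction for day 5 minus day 3. The share was 8.81% for day 7 minus day 5 and 26.3% for day 10 minus day 3. For day 10 minus day 7 it was 6.41%, and no member passed. It was 19.6% for the excess over the sum, 13.3% for Wnt3-CM minus day 10 and 11.1% for kinase-dead minus day 7. The differences of day 5 and of day 10 from day 3 share the day 3 libraries. The 4-OHT response changed from day 3 to day 5 by -1.09 on the log2 scale for Egr1, -1.16 for Fos, -2.46 for Fosl1, -1.18 for Jun, -1.33 for Ier3 and -2.49 for Atf3. It changed from day 5 to day 7 by 0.59 for Egr1 (adjusted p = 0.0305, with the call lost at 0.58 under a replicate block and without any 1 of 6 libraries) and 0.65 for Ier3 (adjusted p = 0.00591, lost without any 1 of 2 libraries). From day 3 to day 10 the change was -1.00 for Egr1, -0.96 for Fos, -2.56 for Fosl1, -1.33 for Jun, -0.95 for Ier3 and -1.92 for Atf3.

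The effect in CDK8iIEC-KO/Cdk19-/- organoids differed from the sum of the single knockouts by -1.35 for Egr1, -0.96 for Jun and -1.20 for Atf3. VillinCreERT2 cancels from these values, which rest on the C57BL/6 level, and with VillinCreERT2 as the control of both single knockouts they were -1.81, -0.28 (adjusted p = 0.0635) and 0.28 (adjusted p = 0.0959). The response in Wnt3-CM differed from that on day 10 in standard medium by -0.59 for Egr1 (adjusted p = 0.0198, lost without any 1 of 6 libraries), -1.34 for Fos, -1.01 for Fosl1 (adjusted p = 0.00938), -1.22 for Junb and -0.93 for Ier3. The response of the kinase-dead line differed from the day 7 response of the Cdk19-/- line by 0.75 for Egr1 (adjusted p = 0.00434), 1.08 for Jun (adjusted p = 0.0019), -0.63 for Ier3 (adjusted p = 0.0431, lost without any 1 of 10 of the 12 libraries) and 1.04 for Atf3 (adjusted p = 0.00505). Medium, line and set of libraries cannot be told apart in these last 2 groups.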

How the results depend on the processing

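With 1 library left out, 1649 values of single members in a comparison stayed on their side of the cutoffs, 41 lost a call and 14 gained one. Of the 1649, 53 changed sign, all without a call, at a size of up to 0.71 on the log2 scale before and 0.642 after. Under the other alternatives 1333 stayed on their side (10 without a call changed sign, at a size of up to 0.2 before and 0.163 after), 14 lost a call, 8 gained one and 3 reversed. The reversed ones were Fosl1 in CDK8iIEC-KO/Cdk19-/- organoids at 0.90 against the mean of both control lines, and the excess over the sum of Fosl1 at 1.198 (adjusted p = 0.00484) and Atf3 at 0.28 with VillinCreERT2 as the control of both single knockouts, an alternative added after the data were seen. With the latter Jun lost its call at -0.28 and Fosb gained one at 1.17 (adjusted p = 0.0224). Beside members named with their comparison in the report, Ier3 gained a call in CDK8iIEC-KO/Cdk19-/- organoids with upper quartile normalization at 0.62, Atf3 in the response of day 7 minus day 5 with no filter at 0.62 and from day 7 to day 10 with EtOH and at least 10 counts at -0.60, and Fosb in Wnt3-CM with at least 10 counts at -0.62. Egr1 lost one in the response in Wnt3-CM minus day 10 with no filter at -0.58 and with upper quartile normalization at -0.54. The cause was not tested.

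Counts of members called moved by over 1.5 times as follows, where a gain and a loss can cancel. EtOH day 5 against day 3 gave 1 in place of 2 with DESeq2, limma-voom, no filter, at least 10 counts in every library, or only the groups compared. The response of day 7 minus day 5 gave 1 in place of 2 with limma-voom, upper quartile normalization, at least 10 counts or only the groups compared. CDK8iIEC-KO gave 1 with upper quartile normalization, and Cdk8 fl/fl/Cdk19-/- gave 1 with at least 10 counts. With no fold cutoff the counts were 4 for Cdk8 fl/fl/Cdk19-/-, 5 for CDK8iIEC-KO/Cdk19-/-, 6 for C57BL/6 against VillinCreERT2, 7 for the excess over the sum and 4 for the kinase-dead line. The share of all genes at that cutoff is not given here. At an unadjusted p under 0.05 stood 4, 6, 7 and 7 of 9 members, and 6 of 10 in the kinase-dead line. The shares of all genes there were 27.8%, 57.9%, 64.8%, 50.4% and 38.9%, in that order. IECs gave 1 with DESeq2 and with no filter.

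Leaving out 1 library, counts ranged from 3 to 4 on day 5, 1 to 2 for EtOH day 5 against day 3, 0 to 3 for the response of day 7 minus day 5, 4 to 6 for EtOH day 10 against day 7, 0 to 1 for the response of day 10 minus day 7, 1 to 3 in CDK8iIEC-KO, 1 to 2 in Cdk8 fl/fl/Cdk19-/-, 3 to 4 in CDK8iIEC-KO/Cdk19-/- organoids and for its excess, 4 to 6 for the response in Wnt3-CM minus day 10 and 3 to 4 for the kinase-dead response minus day 7. The others did not move (6 on day 3, 3 on days 7 and 10, 6 for the responses of days 5 and 10 minus day 3, 0 for EtOH day 7 against day 5, 3 between control lines, 0 in IECs, 9 in Wnt3-CM, 8 with EtOH in Wnt3-CM and 1 in the kinase-dead line).

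With the replicate number as a block, the response of day 7 minus day 5 called 1 member in place of 2, without Egr1, and no other count of members called moved by over 1.5 times. A block was not run for Wnt3-CM, the kinase-dead line and the joint fits, because their column numbers are not tied to those of the labels. Depth limits Egr2, at 1 to 28 counts per organoid library, and Fosb, at 5 to 79.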
